A study of Mus musculus with 12 samples.

Results

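The genes described here are the chemokines, interleukins and TNF-family ligands of mouse prostate organoids. They were chosen by name: gene symbols that start with Ccl, Cxcl, Il or Tnfsf followed by a number, with interleukin receptors left out, together with Cx3cl1, Tnf, Lta, Ltb, Csf1, Csf2, Csf3 and Lif. Of the 24674 genes measured, 64 met this rule. Of these, 59 encode ligands. The other 5 share only the name pattern: Il6st, the shared receptor chain gp130, Il18bp, a secreted binder of IL-18, Il4i1, an amino acid oxidase, and the long non-coding RNAs Il1bos and Tnfsf13os.

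Organoids are small three-dimensional cultures that epithelial cells form in a gel. Here they were grown from basal cells of the prostate of wild-type C57BL/6 mice, sorted by surface markers with blood, endothelial and red blood cells removed. All 4 groups shared this origin and differed in treatment. The control group received vehicle, the second UK5099, the third butyrate and the fourth UK5099 with butyrate (the combination). UK5099 is a small molecule that keeps pyruvate out of mitochondria by inhibiting its carrier. Butyrate, a short-chain fatty acid, is an inhibitor of histone deacetylases. Each group had 3 samples, 12 in all, numbered by the labels as replicates. The labels do not say whether these came from separate mice, so p-values measure the spread between these samples, which may be technical. The doses and the length of treatment are not in the labels.

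Chemokines are small secreted proteins that guide leukocytes. Those of the CXC class that carry the amino acids Glu-Leu-Arg before the first cysteines (ELR chemokines) typically attract neutrophils through the receptor CXCR2. By contrast, Cxcl9, Cxcl10 and Cxcl11 are interferon-responsive and attract T cells. IL-1 family cytokines such as IL-1 alpha and IL-33 are stored in epithelial cells and act as alarm signals when cells are damaged. Many of these genes, among them Tnf, are classical targets of the transcription factor NF-kB, which is held inactive by IkB proteins until a receptor signals.

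RNA was measured by sequencing and given as TPM, an abundance scaled to length and to a total of 1000000 per sample. In the deposited table the length was the whole gene span with introns, so levels are compared between genes only after division by exonic length, and this is stated where it is done. Depth, recovered from the steps between low values, was 33252133 to 43499515 fragments per sample. The 7 epithelial markers summed to between 5640.1 and 11780.5 TPM over all samples, and they did not move together. The basal keratin Krt5 had means of 1848, 4930.4, 3152 and 4514 TPM in the order vehicle, UK5099, butyrate and combination, and the basal keratin Krt14 had 1676, 5047, 1391 and 3641. The luminal keratins Krt8 (916, 364, 275 and 119 TPM) and Krt18 (1468, 748, 613 and 359) and the adhesion genes Epcam (536, 303, 170.4 and 95.4) and Cdh1 (172, 129.9, 101 and 84.9) were lower in each treated group, alongside the ligands that fell, and the basal regulator Trp63 was at 5.23, 9.59, 8.46 and 8.76. The part of these shifts in the results on ligands was not tested. The leukocyte marker Ptprc, which encodes the CD45 used in the sort, had a mean of at most 0.00163 TPM in any group. Of 11 leukocyte markers 5 were in the table, and their sum rose from 24.0–25.1 TPM in vehicle to 29.8–31.1 after UK5099, 66.8–69.3 after butyrate and 87.0–97.7 under both drugs, almost all of it the lysosomal gene Cd68. The 7 fibroblast markers summed to 2.39–3.15 TPM in 3 groups and to 10.8–11.1 TPM with butyrate, where Dcn accounted for 9.51 TPM. The 5 endothelial markers did not exceed 0.0744 TPM in sum. In bulk RNA, fewer cells of a type and less RNA per cell cannot be told apart.

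To show what the response of the ELR family could be set against, promoter sequences are given first. They are the 250 bases before the start of transcription from RefSeq (GRCm38.p6), read along the gene's strand, and 42 of the 64 genes had an entry. Capitals mark the NF-kB motif, the AP-1 motif (TGAGTCA or TGACTCA), the ISRE core (GAAA, any 2 bases and GAAA again) and the TATA box (TATAAA), all searched on both strands. Cxcl1 (chr5:90890995-90891244, plus strand), Cxcl2 (chr5:90903649-90903898, plus), Cxcl3 (chr5:90785851-90786100, plus) and Cxcl15 (chr5:90794284-90794533, plus) are 4 of the 5 ELR genes of one cluster, Cxcl10 (chr5:92348890-92349139, minus) is an interferon-responsive gene that fell with UK5099, and Il33 (chr19:29945540-29945789, plus, one of its 2 listed starts) is the most abundant gene that rose.
Cxcl1: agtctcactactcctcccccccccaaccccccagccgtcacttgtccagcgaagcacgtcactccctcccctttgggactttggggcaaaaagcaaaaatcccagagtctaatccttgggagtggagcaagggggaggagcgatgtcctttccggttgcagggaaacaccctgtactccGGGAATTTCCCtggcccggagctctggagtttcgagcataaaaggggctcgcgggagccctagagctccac
Cxcl2: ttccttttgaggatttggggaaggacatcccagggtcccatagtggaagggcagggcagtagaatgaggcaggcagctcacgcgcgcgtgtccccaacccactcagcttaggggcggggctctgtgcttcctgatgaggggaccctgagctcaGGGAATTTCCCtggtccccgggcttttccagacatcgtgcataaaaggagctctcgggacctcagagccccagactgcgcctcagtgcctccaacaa
Cxcl3: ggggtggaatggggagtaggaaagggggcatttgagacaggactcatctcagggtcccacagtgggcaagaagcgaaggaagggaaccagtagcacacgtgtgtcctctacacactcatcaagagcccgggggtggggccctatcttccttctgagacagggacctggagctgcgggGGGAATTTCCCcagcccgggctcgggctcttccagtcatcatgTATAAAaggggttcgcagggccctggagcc
Cxcl15: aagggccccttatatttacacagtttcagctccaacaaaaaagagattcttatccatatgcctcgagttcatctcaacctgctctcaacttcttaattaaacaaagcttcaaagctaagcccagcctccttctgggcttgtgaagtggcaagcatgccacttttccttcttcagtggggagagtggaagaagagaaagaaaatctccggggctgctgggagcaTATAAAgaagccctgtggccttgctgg
Cxcl10: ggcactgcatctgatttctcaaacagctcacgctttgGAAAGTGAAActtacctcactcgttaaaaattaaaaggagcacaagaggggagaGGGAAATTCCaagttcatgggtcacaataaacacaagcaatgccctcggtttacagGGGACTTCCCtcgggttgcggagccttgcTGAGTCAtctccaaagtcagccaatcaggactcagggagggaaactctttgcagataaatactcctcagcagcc
Il33: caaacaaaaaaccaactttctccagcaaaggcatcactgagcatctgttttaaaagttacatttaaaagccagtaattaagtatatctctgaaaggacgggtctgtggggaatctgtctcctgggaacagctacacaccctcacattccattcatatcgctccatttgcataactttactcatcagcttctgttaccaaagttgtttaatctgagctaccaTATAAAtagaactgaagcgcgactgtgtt

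The promoters of Cxcl1, Cxcl2 and Cxcl3 held the same NF-kB run, in which 2 overlapping matches shifted by 1 base started at -71, -97 and -73, counted back from the start of transcription. Cxcl10 held 2 separate NF-kB matches, an AP-1 match and an ISRE core. In Cxcl15 the TATA box, from -27 to -22, was the only match among these motifs, and in the Il33 stretch shown a TATA box lay from -29 to -24. Over all 32851 promoters of the table, 3.90% held the NF-kB motif, 4.46% AP-1, 2.98% the ISRE core and 12.4% the TATA box. Of the 51 promoters of the matched genes, 11 held the NF-kB motif. The CRE motif (TGACGTCA) was in 1.55% of all promoters and in 0 of these 51. A match is a description of the letters and was not tested for binding.

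In vehicle, chemokines led these genes. On exonic length, Cxcl1 stood highest at 299 ± 8.84 TPM (mean ± SD, n = 3 here and below), followed by Cxcl2 at 259 ± 2.48, Cxcl16 at 247 ± 3.43, Lif at 208 ± 3.31, Il33 at 206 ± 7.27, Tnf at 193 ± 3.19, Cxcl5 at 180.5 ± 3.40 and Il1a at 174 ± 1.28. Lif and Il33 did not differ beyond their spread. With the combination the order was another: Il33 stood at 679 ± 32.3 TPM, Il1a at 109.5 ± 4.26, Cxcl16 at 96.7 ± 3.16 and Tnf at 76.0 ± 4.11, and Cxcl1 at 47.1 ± 3.47 was level with Cxcl5 at 46.3 ± 1.64.

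The 59 ligand genes together fell from 2253 ± 20.5 TPM on exonic length in vehicle to 1575 ± 33.2 after UK5099, 1342 ± 13.8 after butyrate and 1359 ± 18.7 under both drugs. ELR chemokines made up 36.7% ± 0.350 of this sum in vehicle, 21.1% ± 0.637 after UK5099, 26.3% ± 0.512 after butyrate and 12.2% ± 0.865 under both drugs. The IL-1 family took the opposite course, from 17.1% ± 0.332 to 41.3% ± 1.18, 44.2% ± 0.642 and 61.2% ± 2.11. Il33 alone was 9.13% ± 0.354 of the ligand sum in vehicle and 51.9%, 48.6% and 49.4% in the 3 combination samples. These shares are descriptions and were not tested. Whether fragments in introns were counted is not given in the sources used here, and for genes with long introns such counts would raise the level on exonic length.

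**Figure D1:**
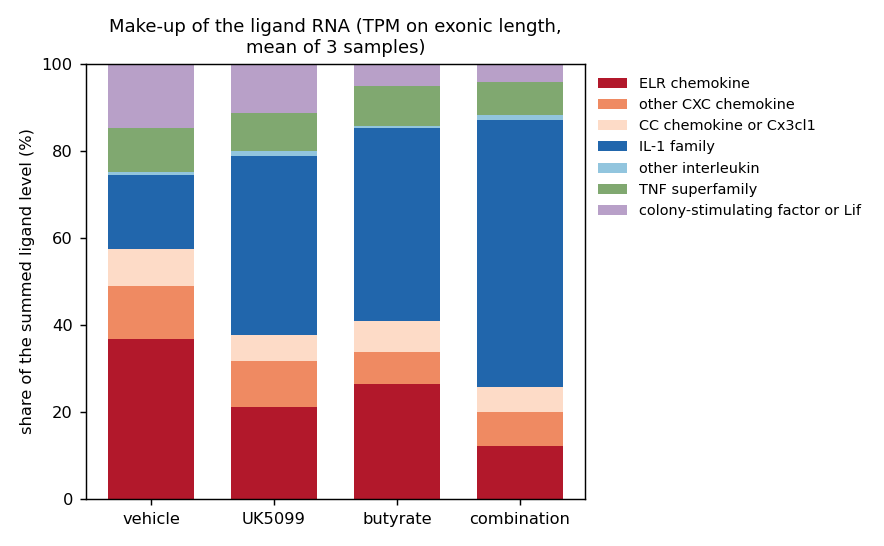
Share of the summed ligand level (%, vertical axis; TPM on exonic length, mean of 3 samples) held by each of 7 ligand classes in the 4 treatment groups (horizontal axis). ELR chemokines fall from 36.7% in vehicle to 12.2% with the combination, while the IL-1 family grows from 17.1% to 61.2%.

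The first comparison asked which of these genes responded to block of the pyruvate carrier, the second which responded to butyrate, and the third what both drugs did together. A gene was called changed when a limma fit of log2(TPM + 1) over all genes gave an adjusted p-value under 0.01 and a coefficient beyond 1 in either direction. With UK5099, 2 members rose (Il24 and Il36g) and 12 fell (Cxcl1, Cxcl2, Cxcl5, Cxcl15, Cxcl10, Cxcl13, Ccl2, Cx3cl1, Csf1, Csf2, Il23a and Ltb). These 14 were 21.9% of the 64, where 1.84% of all genes passed, 0.928% higher and 0.912% lower. With butyrate, 2 rose (Il33 and Il36g) and 14 fell, which was 25.0% of the members against 3.54% of all genes (1.13% higher and 2.42% lower). With the combination, 3 rose (Il24, Il33 and Il36g) and 18 fell, which was 32.8% against 6.42% of all genes (1.79% higher and 4.63% lower). The 3 comparisons share the vehicle samples.

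The scale moved these counts. Over all 24674 genes, coefficients had a median of -0.03 after UK5099, -0.07 after butyrate and -0.11 under both drugs. The medians of all 64 members were -0.10, -0.12 and -0.17. In the 13345 genes that averaged 1 TPM or more, a set that leaves out the low genes, the medians were -0.12, -0.30 and -0.41. After scaling by median of ratios, which brought the medians of those genes to between 0.00 and 0.01, the calls were 3 higher and 9 lower with UK5099, 3 and 11 with butyrate, and 4 and 13 with the combination. The pseudocount of 1 also compresses low genes. Voom on the recovered fragments weights each value by the spread expected at its count level. It called 7 members higher and 18 lower with UK5099, 9 and 17 with butyrate, and 8 and 25 with the combination. Of all genes voom called 5.97% with UK5099 (2.77% higher and 3.20% lower), 10.5% with butyrate (6.82% and 3.70%) and 13.9% with both (7.80% and 6.14%).

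**Figure D2:**
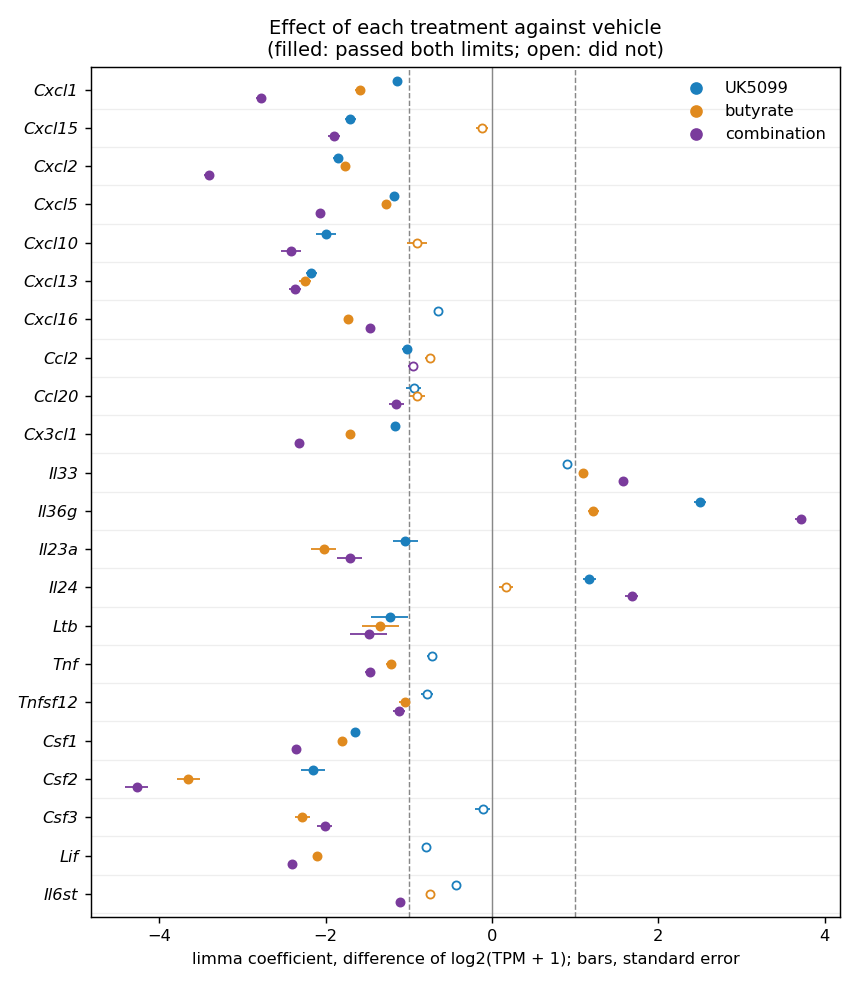
Limma coefficients (horizontal axis, difference of log2(TPM + 1), with standard errors as bars) of UK5099, butyrate and the combination against vehicle for the 22 members that passed in at least 1 of these comparisons and reached 1 TPM. Filled points passed both limits, dashed lines mark coefficients of -1 and 1; Il36g, Il33 and Il24 lie on the right and the other genes on the left.

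Of the 5 ELR chemokines, 4 fell after UK5099, 3 after butyrate and 4 under both drugs, and 0 rose. By the coordinates of the deposited table, the 5 genes lie on chromosome 5 between 90907219 and 91053798, in the order Cxcl5, Cxcl3, Cxcl15, Cxcl1 and Cxcl2. Cxcl1, a main neutrophil attractant, was at 514, 543 and 532 TPM in vehicle, 226, 255 and 241 after UK5099, 175, 176 and 174 after butyrate, and 70.6, 79.6 and 79.7 under both drugs. No 2 groups overlapped. The coefficients of Cxcl1 were -1.14 ± 0.05 (SE) for UK5099 (limma, adjusted p = 2.34e-07), -1.59 ± 0.05 for butyrate (adjusted p = 9.32e-09) and -2.78 ± 0.05 for the combination (adjusted p = 1.88e-10).

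Cxcl2, its close relative, was at 459.6, 465 and 454 TPM in the vehicle group, 119, 135 and 126 in the UK5099 group, 129, 139 and 137 in the butyrate group, and 38.6, 45.2 and 44.9 where both were given. The single drugs lowered Cxcl2 to overlapping levels, 3.62-fold and 3.40-fold below vehicle, and the combination was 10.7-fold below it. The combination also passed both limits against each single drug, with coefficients of -1.54 ± 0.06 against UK5099 (limma, adjusted p = 5.36e-08) and -1.64 ± 0.06 against butyrate (adjusted p = 1.77e-07). Cxcl1 did the same, at -1.64 ± 0.05 (adjusted p = 1.45e-08) and -1.18 ± 0.05 (adjusted p = 4.38e-07). The interaction terms of Cxcl1 and Cxcl2 were -0.05 ± 0.08 (adjusted p = 0.772) and 0.21 ± 0.09 (adjusted p = 0.141), so on the log scale neither passed as a departure from the sum of the single effects.

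Cxcl5, also a CXCR2 ligand, was at 260.4, 262 and 267 TPM in vehicle, at 108, 119.8 and 119.6 in UK5099 samples, at 105, 111 and 110.2 in butyrate samples, and at 61.3, 64.1 and 60.4 in combination samples. It fell in all 3 comparisons, by 1.18 ± 0.04, 1.27 ± 0.04 and 2.07 ± 0.04 on the log2 scale (limma, adjusted p = 4.97e-08, 1.05e-08 and 3.04e-10). Under median of ratios scaling the coefficient of Cxcl5 with butyrate was -0.91, inside the limit of 1, and that of Cxcl1 with UK5099 was -0.98.

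Cxcl15, also called lungkine, responded to UK5099 and showed no detected change with butyrate. Its samples were at 29.7, 29.8 and 29.4 TPM in vehicle. UK5099 samples stood at 8.66, 8.87 and 7.82, butyrate samples at 27.4, 28.4 and 25.9, and combination samples at 6.22, 7.8 and 7.69. The UK5099 coefficient was -1.70 ± 0.07 (limma, adjusted p = 1.47e-07) and the butyrate coefficient -0.12 ± 0.07 (adjusted p = 0.221). The direct contrast of butyrate against UK5099 was 1.58 ± 0.07 (adjusted p = 1.74e-07), so the responses to the single drugs differed.

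Cxcl3 was the ELR gene that passed in none of the comparisons against vehicle. It was at 34.7, 37.9 and 36.7 TPM in vehicle, 38.9, 39.2 and 41.3 after UK5099, 25.2, 24.9 and 24.5 after butyrate, and 43.9, 47.0 and 43.0 under both drugs. Its coefficients were 0.12 ± 0.04, -0.53 ± 0.04 and 0.28 ± 0.04 (limma, adjusted p = 0.0353, 2.11e-06 and 0.000170). Its promoter carries the same NF-kB run as those of Cxcl1 and Cxcl2, and its levels did not follow theirs. None of the 5 values of Cxcl3 under 1000 fragments was a whole number of fragments, which leaves its level uncertain if fractional values stand for reads divided between genes. That was not tested, and Cxcl3 overlaps no other gene of the table.

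**Figure D3:**
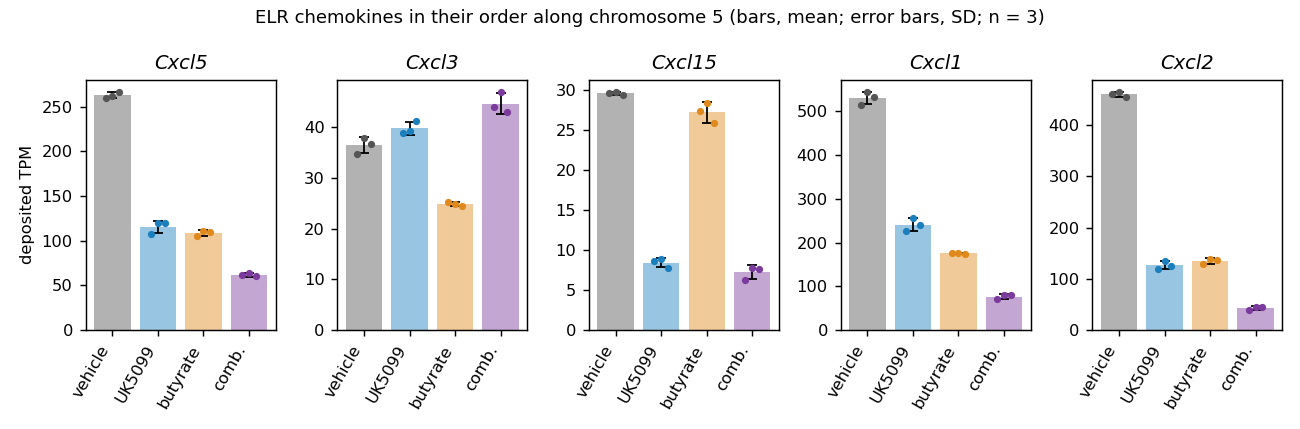
Deposited TPM (vertical axes, each from 0) of the 5 ELR chemokine genes in vehicle, UK5099, butyrate and the combination (comb.), in their order along chromosome 5. Bars are means, error bars SD and points the 3 samples; Cxcl5, Cxcl1 and Cxcl2 step down with each drug, Cxcl15 drops with UK5099 and the combination, and Cxcl3 stays between 24.5 and 47.0 TPM.

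Among the other CXC chemokines, 2 of 8 fell after UK5099, 2 after butyrate and 3 under both drugs. Cxcl16, a membrane-bound ligand of CXCR6, was at 219.6, 224 and 217 TPM in the vehicle group, 137, 143 and 141 in the UK5099 group, 64.2, 65.1 and 67.5 in the butyrate group, and 76.7, 80.6 and 80.1 where both were given. Its level was lower with butyrate alone than with both drugs, and no groups overlapped. The coefficients were -0.65 ± 0.03 after UK5099, short of the limit of 1, -1.73 ± 0.03 for butyrate and -1.47 ± 0.03 for the combination (limma, adjusted p = 1.00e-07, 1.26e-10 and 1.41e-10). Under median of ratios scaling the combination coefficient was -0.96.

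Cxcl10, which attracts T cells through CXCR3, was at 34.3, 34.5 and 33.7 TPM in vehicle, at 7.49, 7.36 and 8.7 in UK5099 samples, at 17.5, 19.3 and 16.8 in butyrate samples, and at 5.92, 4.34 and 6.66 in combination samples. UK5099 lowered it 4.35-fold, with a coefficient of -1.99 ± 0.12 (limma, adjusted p = 1.06e-06). The butyrate coefficient, -0.90 ± 0.12, did not reach the limit, and butyrate stood above UK5099 by 1.09 ± 0.12 (adjusted p = 4.48e-05). Its interferon-responsive relatives Cxcl9 and Cxcl11 were at most 0.37 TPM in every sample. Cxcl10 overlaps Art3 on the opposite strand.

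Cxcl13, an attractant of B cells, was at 3.92, 4.43 and 4.31 TPM in vehicle and at most 0.254 TPM in any treated sample. Over the 3 samples of a group this was 372 fragments in vehicle, 15 after UK5099, 11 after butyrate and 1 under both drugs. The coefficients were -2.17 ± 0.07, -2.25 ± 0.07 and -2.37 ± 0.07 (limma, adjusted p = 1.93e-08, 5.05e-09 and 1.77e-09). The lower end of the scale, at log2(0 + 1), lies close under all 3.

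Of the 8 CC chemokines and Cx3cl1, 2 fell after UK5099, 1 after butyrate and 2 under both drugs. Cx3cl1, a membrane-anchored chemokine for monocytes, was at 49.3, 50.9 and 48.0 TPM in vehicle. UK5099 samples stood at 22.2, 21.7 and 20.2, butyrate samples at 13.8, 14.5 and 15.1, and combination samples at 8.76, 9.32 and 9.13. It stepped down in the same order as Cxcl1, with coefficients of -1.17 ± 0.04, -1.70 ± 0.04 and -2.32 ± 0.04 (limma, adjusted p = 4.54e-08, 1.62e-09 and 1.48e-10). Ccl2, which draws monocytes through CCR2, was at 81.3, 81.7 and 80.6 TPM in vehicle, 36.0, 44.0 and 38.7 after UK5099, 48.3, 47.6 and 48.5 after butyrate, and 42.0, 42.3 and 40.4 under both drugs.

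The call of Ccl2 rested on the limit. It passed with UK5099 at -1.02 ± 0.06 (limma, adjusted p = 7.12e-07), was -0.96 without the first UK5099 sample, and was -0.95 ± 0.06 with the combination, where it did not pass. Ccl20, the CCR6 ligand of mucosal epithelium, was at 29.5, 28.4 and 32.5 TPM in the vehicle group, 15.8, 15.6 and 14.2 in the UK5099 group, 14.2, 18.1 and 14.7 in the butyrate group, and 12.9, 13.0 and 13.2 where both were given. It passed with the combination only, at -1.15 ± 0.09 (adjusted p = 1.23e-06), while the single drugs gave -0.94 ± 0.09 and -0.90 ± 0.09; the combination did not pass against either of them. Under median of ratios scaling the combination coefficient of Ccl20 was -0.66. Ccl7 and Ccl27a passed nowhere, with means of 1.70–2.45 TPM and 2.24–2.57 TPM.

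The colony-stimulating factors and Lif all fell with butyrate and with the combination, 4 of 4 in both. Csf2 encodes GM-CSF, a growth factor of granulocytes and macrophages. It was at 40.9, 36.7 and 37.9 TPM in vehicle, at 6.14, 9.69 and 8.17 in UK5099 samples, at 1.97, 1.99 and 2.53 in butyrate samples, and at 1.21, 0.924 and 0.996 in combination samples. The combination was 36.9-fold below vehicle, and its coefficient of -4.27 ± 0.14 (limma, adjusted p = 3.26e-09) was the lowest of all members on the log2(TPM + 1) scale, which compresses genes of low level such as Tnfsf10. Csf1, the macrophage growth factor, was at 12, 12.3 and 12.4 TPM in vehicle, at 3.3, 3.06 and 3.36 in UK5099 samples, at 2.61, 2.98 and 2.88 in butyrate samples, and at 1.69, 1.52 and 1.53 in combination samples, a fall of 1.64 ± 0.04, 1.80 ± 0.04 and 2.36 ± 0.04 on the log2 scale (adjusted p = 6.08e-09, 1.20e-09 and 1.33e-10).

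Csf3 and Lif separated the drugs. Csf3 encodes G-CSF, which drives neutrophil production, and was at 41.4, 42.5 and 37.0 TPM in vehicle, 36.5, 38.0 and 36.9 after UK5099, 6.66, 7.56 and 8.25 after butyrate, and 8.39, 10.6 and 8.92 under both drugs. UK5099 and vehicle overlapped, with a coefficient of -0.11 ± 0.09 (limma, adjusted p = 0.397), whereas butyrate gave -2.28 ± 0.09 (adjusted p = 2.71e-08) and its contrast with UK5099 was -2.17 ± 0.09 (adjusted p = 8.42e-08). Lif, a gp130 cytokine, was at 106, 108 and 108 TPM in the vehicle group, 59.3, 63.1 and 62.0 in the UK5099 group, 23.0, 24.7 and 25.2 in the butyrate group, and 18.1, 20.0 and 20.6 where both were given. Its UK5099 coefficient was -0.79 ± 0.05 and its butyrate coefficient -2.10 ± 0.05 (adjusted p = 1.16e-06 and 1.04e-09), with a difference of -1.31 ± 0.05 between the drugs (adjusted p = 3.90e-08).

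Of the 11 TNF superfamily ligands, 1 fell with UK5099 and 3 with butyrate and with the combination in limma. Voom called 1 of them higher and 4 lower with UK5099, 3 and 3 with butyrate, and 1 and 4 with the combination. Tnf itself was at 211, 217 and 213 TPM in vehicle, at 118, 134 and 138 in UK5099 samples, at 86.6, 93.2 and 95.5 in butyrate samples, and at 73.9, 81.2 and 76.1 in combination samples. The groups did not overlap, and the coefficients were -0.72 ± 0.06, -1.21 ± 0.06 and -1.46 ± 0.06 (limma, adjusted p = 1.06e-05, 1.15e-07 and 1.95e-08). Under median of ratios scaling Tnf was inside the limit for butyrate (-0.85) and for the combination (-0.95).

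Ltb encodes lymphotoxin beta, which signals through Ltbr. It was at 2.73, 3.31 and 3.12 TPM in vehicle. UK5099 samples stood at 1.51, 0.555 and 0.321, butyrate samples at 0.627, 0.617 and 0.546, and combination samples at 0.578, 0.695 and 0.152. The samples spread widely with UK5099 and with the combination but not with butyrate. The coefficients of Ltb were -1.23 ± 0.22, -1.34 ± 0.22 and -1.48 ± 0.22 (limma, adjusted p = 0.00149, 0.000544 and 0.000243). The UK5099 call of Ltb was lost at pseudocounts of 0.1 and 0.01 TPM and with only the 2 groups fitted (adjusted p = 0.0104, 0.0192 and 0.0173), and its butyrate call at 0.01 TPM (adjusted p = 0.0108). Tnfsf12 encodes TWEAK and was at 1.52, 1.53 and 1.38 TPM in vehicle, 0.418, 0.355 and 0.553 after UK5099, 0.154, 0.138 and 0.308 after butyrate, and 0.0797, 0.158 and 0.188 under both drugs. Its neighbour Tnfsf13, which encodes APRIL, also had a lower mean with UK5099, but a higher one with butyrate. The means of Tnfsf13 were 8.74 ± 0.815 TPM in vehicle, 4.67 ± 0.943 after UK5099, 14.8 ± 1.53 after butyrate and 7.67 ± 0.448 under both drugs. Its butyrate and UK5099 groups differed by 1.49 ± 0.12 (limma, adjusted p = 6.90e-06).

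Tnfsf12 and Tnfsf13 overlap the read-through gene Tnfsfm13 and the antisense gene Tnfsf13os. Of their 12 values each, 0 and 1 were whole numbers of fragments, so their split of reads may be uncertain. Tnfsf12 passed with butyrate at -1.05 ± 0.07 and with the combination at -1.12 ± 0.07 (limma, adjusted p = 5.82e-07 and 2.41e-07), and under median of ratios scaling at -0.88 and -0.93 it did not pass. Tnfsf9 passed nowhere, with means of 5.65–8.15 TPM, and had 1 of 12 values whole. Tnfsf4, which encodes OX40L, had means of 0.260, 0.621, 0.938 and 1.13 TPM in vehicle, UK5099, butyrate and the combination and stayed inside the limit on log2(TPM + 1), with a combination coefficient of 0.76 ± 0.06. In voom its combination coefficient was 2.53 ± 0.21 (adjusted p = 1.77e-10).

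**Figure D4:**
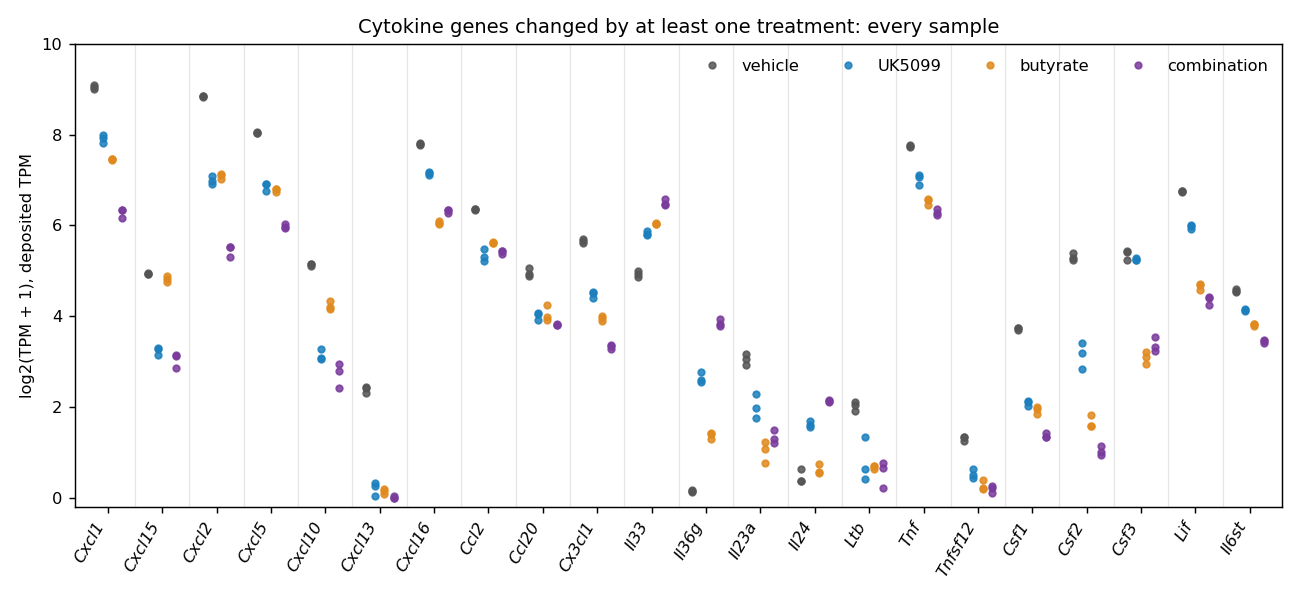
Values of every sample (points) for the 22 members that passed in at least 1 comparison against vehicle and reached 1 TPM, as log2(TPM + 1) of the deposited TPM (vertical axis), ordered by class and coloured by group. Samples of a group lie close together for Cxcl1, Csf1 and Tnf and spread for Ltb; Il33, Il36g and Il24 are the genes whose combination samples lie above vehicle.

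Of the 3 members that rose against vehicle in limma, Il33 and Il36g belong to the IL-1 family. Of its 7 members, 1 rose with UK5099 and 2 with butyrate and with the combination, and 0 fell. Voom called 3, 2 and 3 of the 7 higher, out of 7, 9 and 8 members that it called higher in all. Il36g encodes IL-36 gamma, an epithelial alarm cytokine. It was at 0.0851, 0.11 and 0.118 TPM in the vehicle group, 5.04, 4.86 and 5.86 in the UK5099 group, 1.44, 1.64 and 1.68 in the butyrate group, and 14.4, 13.2 and 12.7 where both were given. The 4 groups were far apart, and over 3 samples each they held 16, 873, 299 and 3003 fragments. The ratio of means to vehicle was 50.3 after UK5099, 15.2 after butyrate and 129 under both drugs, and the coefficients were 2.50 ± 0.07, 1.22 ± 0.07 and 3.71 ± 0.07 (limma, adjusted p = 6.88e-09, 1.73e-07 and 1.22e-10).

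Il36g with both drugs exceeded each drug alone, by 1.21 ± 0.07 against UK5099 and 2.48 ± 0.07 against butyrate (limma, adjusted p = 2.56e-07 and 1.68e-08). Its interaction term depended on the scale. It was -0.01 ± 0.09 (adjusted p = 0.957) on log2(TPM + 1) and -2.45 ± 0.43 (adjusted p = 0.000108) in voom, where the pseudocount does not compress the low vehicle values. The 2 other IL-36 genes were near the lower end, with Il36a at most 0.0525 TPM and Il36b at most 0.16 TPM in any sample, and Il36b listed at 0 in the 3 vehicle samples.

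Il33, an alarm cytokine stored in the nucleus, was at 30.7, 29.7 and 28.3 TPM in vehicle, at 55.4, 54.6 and 57.9 in UK5099 samples, at 65.2, 64.0 and 64.2 in butyrate samples, and at 95.0, 86.3 and 87.3 in combination samples. The groups followed this order without overlap. The rise was 3.03-fold with the combination. The coefficients were 0.90 ± 0.04 with UK5099, inside the limit, 1.10 ± 0.04 with butyrate and 1.57 ± 0.04 with the combination (limma, adjusted p = 1.88e-07, 1.71e-08 and 1.02e-09). Voom called Il33 higher with UK5099 too, as well as with butyrate and with the combination.

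Il1a moved in opposite directions with the single drugs. It was at 58.7, 58.5 and 58.8 TPM in vehicle. UK5099 samples stood at 75.3, 78.0 and 82.5, butyrate samples at 29.4, 29.6 and 32.5, and combination samples at 35.4, 32.4 and 34.1. No coefficient against vehicle reached the limit, at 0.42 ± 0.05, -0.92 ± 0.05 and -0.77 ± 0.05 (limma, adjusted p = 7.41e-05, 1.27e-07 and 2.83e-07). The direct contrast of butyrate against UK5099 did, at -1.34 ± 0.05 (adjusted p = 2.96e-08), and so did the combination against UK5099, at -1.19 ± 0.05 (adjusted p = 4.09e-08). Il1b, the secreted counterpart in macrophages, had at most 10 fragments in any group, and its expression was at the edge of detection.

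Among the 15 other interleukins, 1 rose and 1 fell with UK5099, 1 fell with butyrate, and 1 rose and 1 fell with the combination. Il24, an IL-10 family cytokine of skin and other epithelia, was at 0.281, 0.55 and 0.29 TPM in vehicle, 2.03, 2.23 and 1.95 after UK5099, 0.458, 0.475 and 0.679 after butyrate, and 3.45, 3.29 and 3.39 under both drugs. Butyrate overlapped vehicle, and both groups given UK5099 lay above them. The coefficients were 1.17 ± 0.08 after UK5099, 0.17 ± 0.08 for butyrate and 1.68 ± 0.08 for the combination (limma, adjusted p = 2.49e-06, 0.116 and 4.65e-08).

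Il23a encodes the p19 subunit of IL-23, which sustains IL-17-producing T cells. It was at 8.03, 7.28 and 6.56 TPM in the vehicle group, 2.37, 2.95 and 3.84 in the UK5099 group, 1.11, 0.711 and 1.35 in the butyrate group, and 1.46, 1.81 and 1.32 where both were given. Butyrate and the combination overlapped. The coefficients were -1.04 ± 0.15, -2.02 ± 0.15 and -1.71 ± 0.15 (limma, adjusted p = 0.000417, 2.09e-06 and 5.29e-06). The UK5099 coefficient was -0.98 without the first vehicle sample and -0.92 without the first UK5099 sample, inside the limit.

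**Figure D5:**
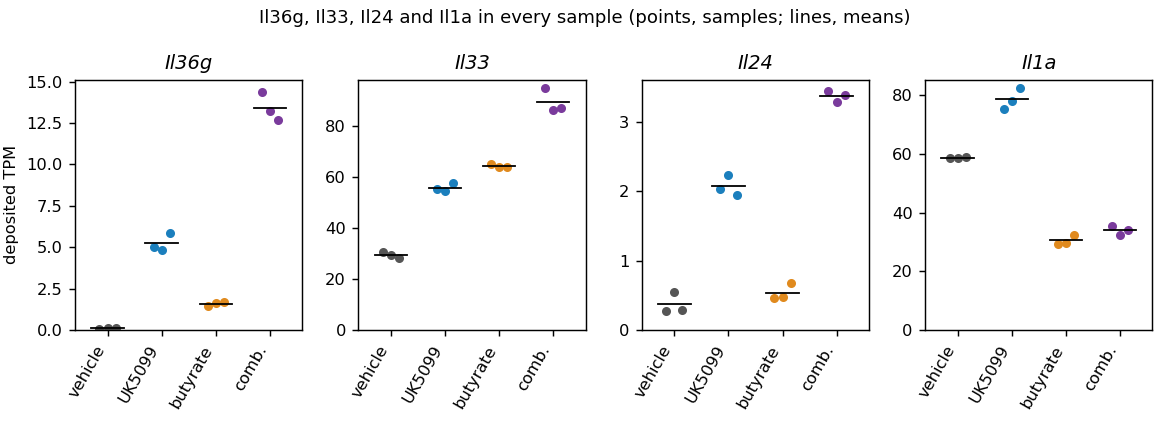
Deposited TPM (vertical axes, each from 0) of Il36g, Il33, Il24 and Il1a in the 4 treatment groups; points are the 3 samples and lines their means. Il36g and Il33 are highest with the combination, Il24 follows UK5099 with butyrate near vehicle, and Il1a lies above vehicle with UK5099 and below it with butyrate.

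Of the names that match but are no ligand, Il6st was called. This receptor chain is used by IL-6, IL-11 and LIF and was at 23.1, 22.6 and 22.1 TPM in vehicle, at 16.3, 16.5 and 16.8 in UK5099 samples, at 13.2, 12.8 and 13.3 in butyrate samples, and at 9.56, 9.97 and 10.2 in combination samples. The combination coefficient was -1.11 ± 0.03 (limma, adjusted p = 4.29e-10), and -0.63 under median of ratios scaling, where it did not pass. Il18bp passed nowhere, with means of 1.90–3.13 TPM.

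Of the 64 members, 33 did not reach a mean of 1 TPM in any group, and with both means under 1 TPM the coefficient on log2(TPM + 1) cannot pass the limit of 1. Those with at least 100 fragments in a group still showed patterns. Il11, a gp130 cytokine, had means of 0.201 ± 0.0128, 0.850 ± 0.111, 0.278 ± 0.0348 and 0.803 ± 0.0241 TPM in vehicle, UK5099, butyrate and the combination, and voom coefficients of 2.12 ± 0.25 with UK5099 and 2.35 ± 0.27 with the combination (adjusted p = 1.40e-07 and 6.08e-08). Tnfsf10, which encodes the death ligand TRAIL, had 484 fragments in vehicle and 24, 24 and 6 in the treated groups, with voom coefficients of -4.70 ± 0.54, -4.46 ± 0.51 and -6.65 ± 0.64 (adjusted p = 1.21e-07, 8.50e-08 and 3.04e-09). On log2(TPM + 1) its coefficients of -0.87, -0.88 and -0.92 did not reach the limit.

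Il34, a second ligand of the Csf1 receptor, had 235 fragments in vehicle and 91, 39 and 64 in the treated groups. Il15, a growth factor of natural killer cells, had 137 in vehicle and 43, 57 and 22. Both were lower in voom in all 3 comparisons. Cxcl17, a mucosal chemokine, had 37, 21, 240 and 89 fragments in vehicle, UK5099, butyrate and the combination, and a voom coefficient of 2.67 ± 0.33 with butyrate (adjusted p = 2.23e-07). Tnfsf15 had 73, 31, 104 and 141 fragments, and was lower in voom with UK5099, at -1.27 ± 0.35 (adjusted p = 0.00460).

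Il7, a lymphocyte growth factor, had means of 0.527, 0.546, 0.217 and 0.204 TPM in these groups and voom coefficients of -0.96 with butyrate and -0.98 with the combination, just inside the limit. Il18 and Ccl25 passed in neither fit in any comparison against vehicle. Of the 12 values of Il7 and Ccl25, 4 and 2 were whole numbers of fragments. Tnfsf13os had 45, 32, 166 and 97 fragments and lies opposite Tnfsf13. Cxcl14, an epithelial chemokine just above 1 TPM with butyrate and the combination, passed in no comparison on log2(TPM + 1). It had means of 0.422, 0.820, 1.25 and 1.54 TPM, with a voom coefficient of 2.23 ± 0.28 with the combination (adjusted p = 3.28e-07).

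The fourth question was whether one drug acted otherwise in the presence of the other. The interaction passed for 4 members, or 6.25% of 64, where 1.01% of all genes passed, 0.515% positive and 0.499% negative. In voom 5 members passed with a positive and 2 with a negative term, where 2.69% of all genes passed, 1.18% positive and 1.51% negative. All 4 limma terms were positive, so the fall with both drugs was smaller than the sum of the single falls. They were Csf1 at 1.08 ± 0.06, Csf2 at 1.53 ± 0.19, Il23a at 1.35 ± 0.22 and Cxcl13 at 2.05 ± 0.10 (limma, adjusted p = 3.18e-06, 0.000443, 0.00202 and 1.21e-06). For Cxcl13 the sum of the single effects lies under the lowest value the scale can take, and this alone forces an interaction of at least 2.04. For Csf2 the forced part is 0.50, for Il23a 0.02 and for Csf1 0.00.

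The single drugs were also compared directly. Between butyrate and UK5099, 3 members were higher with butyrate (Cxcl10, Cxcl15 and Tnfsf13) and 7 lower (Csf2, Csf3, Cxcl16, Il1a, Il24, Il36g and Lif), where 1.86% of all genes passed, 0.681% higher and 1.18% lower. Adding butyrate to UK5099 raised 1 member, Il36g, and lowered 7 (Csf2, Csf3, Cx3cl1, Cxcl1, Cxcl2, Il1a and Lif), with 1.97% of all genes passing, 0.823% higher and 1.15% lower. Adding UK5099 to butyrate raised Il24 and Il36g and lowered Cxcl1, Cxcl2, Cxcl10 and Cxcl15, with 0.908% of all genes passing, 0.551% higher and 0.357% lower. Voom gave other splits. It called 6 members higher and 11 lower between butyrate and UK5099 (7.45% of all genes, 5.04% higher and 2.40% lower), and 4 and 7 for UK5099 added to butyrate (3.35%, 1.65% and 1.69%). For butyrate added to UK5099 it called 10 higher and 9 lower (7.96%, 5.55% and 2.41%). Those higher were Cxcl14, Cxcl17, Il17f, Il19, Il24, Il36g, Tnfsf4, Tnfsf13, Tnfsf13os and Tnfsf15. Under median of ratios scaling Il1a (-0.83) and Cx3cl1 (-0.82) were inside the limit for the combination against UK5099, as in voom (-0.91 and -0.93), and so were Cxcl16 (-0.88) and Il24 (-0.89) for butyrate against UK5099. In limma the members that passed both with butyrate added to UK5099 and with UK5099 added to butyrate were Cxcl1, Cxcl2 and Il36g.

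Receptors of these ligands were counted from a list. Of 38 receptor genes listed 37 were in the table, and 2 were higher and 1 lower with UK5099, 5 lower with butyrate and 4 lower with the combination, with median coefficients of -0.01, -0.05 and -0.15. The share of all genes called lower was 0.912%, 2.42% and 4.63%, and the share called higher was 0.928%, 1.13% and 1.79%. In this fit 0 receptors were higher with butyrate or the combination. Voom called 4 higher and 6 lower with UK5099, 5 and 8 with butyrate, and 7 and 6 with the combination. Ackr4 was among the higher in all 3. Of all genes voom called 2.77% higher and 3.20% lower with UK5099, 6.82% and 3.70% with butyrate, and 7.80% and 6.14% with the combination. Il18r1 and Il18rap, the chains of the IL-18 receptor, had means of 22.1 ± 0.483 and 14.7 ± 0.126 TPM in vehicle and of 1.49 ± 0.0843 and 1.07 ± 0.0961 TPM with the combination. Their combination coefficients were -3.22 ± 0.04 and -2.93 ± 0.06 (limma, adjusted p = 2.76e-11 and 2.60e-10).

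Cxcr2, a receptor of ELR chemokines, had means of 1.27 ± 0.0928 TPM in vehicle, 5.69 ± 0.193 after UK5099, 0.982 ± 0.0322 after butyrate and 2.42 ± 0.268 under both drugs. It rose with UK5099, by 1.56 ± 0.05 (limma, adjusted p = 3.12e-08), while the ELR genes Cxcl1, Cxcl2, Cxcl5 and Cxcl15 fell. Tnfrsf12a, the receptor of TWEAK, fell from 551 ± 8.47 TPM in vehicle to 196 ± 1.94 with butyrate, a coefficient of -1.49 ± 0.02 (adjusted p = 1.26e-10). Of the antagonists and decoy receptors 3 of 6 were in the table, and Il1rn, which blocks the IL-1 receptor, fell with butyrate and with the combination, by 1.11 ± 0.05 and 1.32 ± 0.05 on the log2 scale (adjusted p = 6.18e-08 and 1.13e-08). In voom the call of Il1rn with butyrate was not made. Tnfrsf11b had means of 0.938, 0.0332, 0.0564 and 0.00229 TPM in vehicle, UK5099, butyrate and the combination. Its limma coefficients of -0.91, -0.87 and -0.95 were inside the limit. Voom called it lower in all 3 comparisons, at -4.75, -3.77 and -7.65 (adjusted p = 4.07e-10, 1.38e-10 and 4.88e-12). The third gene, Il1r2, had means of at most 0.0287 TPM.

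All 25 genes of the NF-kB pathway list were in the table. Limma called 0 of them higher, and 1 was lower after UK5099, 6 after butyrate and 9 under both drugs, with median coefficients of -0.23, -0.55 and -0.75. Voom called 0 higher and 2 lower with UK5099, 1 and 3 with butyrate, and 1 and 4 with the combination, with medians of -0.17, -0.28 and -0.48. The 13345 genes that averaged 1 TPM or more had medians of -0.12, -0.30 and -0.41 in limma and -0.07, -0.04 and -0.12 in voom. Over all genes, the share called lower was 0.912%, 2.42% and 4.63% in limma and 3.20%, 3.70% and 6.14% in voom. Nfkbie, which encodes the inhibitor IkB epsilon and is itself an NF-kB target, had means of 14.3 ± 1.11, 5.45 ± 0.182, 4.16 ± 0.133 and 3.62 ± 0.207 TPM in vehicle, UK5099, butyrate and the combination, and passed in all 3 comparisons, at -1.24 ± 0.05, -1.56 ± 0.05 and -1.72 ± 0.05 (limma, adjusted p = 1.13e-07, 8.86e-09 and 2.41e-09). Nfkb2, which encodes the p52 precursor, had means of 101 ± 2.86, 67.3 ± 0.572, 41.5 ± 1.15 and 32.9 ± 1.23 TPM. Relb and Traf1, a partner of p52 and a receptor adaptor, had combination coefficients of -1.35 ± 0.03 and -1.51 ± 0.05 (adjusted p = 7.89e-10 and 6.82e-09).

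Of 10 inflammasome and IL-1 processing genes 7 were in the table, and Casp1, Nlrp1a and Nlrp1b were not. Limma called 1 higher and 0 lower with UK5099, 0 and 1 with butyrate, and 2 and 1 with the combination. Voom called 2 and 0, 2 and 1, and 3 and 2. Of all genes limma called 0.928% higher and 0.912% lower, 1.13% and 2.42%, and 1.79% and 4.63%. For voom these shares were 2.77% and 3.20%, 6.82% and 3.70%, and 7.80% and 6.14%. Gsdmd, whose product forms the membrane pore through which IL-1 family cytokines leave cells, had means of 5.55 ± 0.387 TPM in vehicle, 12.2 ± 0.484 after UK5099, 4.75 ± 0.165 after butyrate and 16.7 ± 0.728 under both drugs. It rose with UK5099 and with the combination, by 1.01 ± 0.05 and 1.43 ± 0.05 (limma, adjusted p = 2.40e-07 and 4.71e-09). Pycard, the adaptor of inflammasomes, rose with the combination from 27.0 ± 0.496 to 58.5 ± 4.29 TPM, by 1.08 ± 0.05 (adjusted p = 2.63e-08). Voom called Pycard higher with UK5099, butyrate and the combination, at 1.01, 1.01 and 1.49 (adjusted p = 5.48e-13, 2.66e-13 and 1.23e-16). Nlrp10 fell from 101 ± 1.99 TPM in vehicle to 37.8 ± 1.36 with butyrate and 12.1 ± 0.181 with the combination, at -1.39 ± 0.03 and -2.96 ± 0.03 (adjusted p = 4.44e-10 and 5.52e-12). Casp4 had a combination coefficient of -0.97 ± 0.03 in limma, inside the limit, and voom called it lower there, at -1.14 (adjusted p = 1.44e-13).

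In all, 22 members passed in at least 1 comparison against vehicle, 19 of them lower and 3 higher, and of these 13 and 1 had a promoter entry. The NF-kB motif was in 6 of the 13, which were Ccl20, Csf1, Cxcl1, Cxcl2, Cxcl10 and Ltb. It was in 11 of all 42 members with an entry, called or not, and in 3.90% of all promoters. A link between the motif and the fall was not tested. Cx3cl1, Cxcl13, Cxcl15 and Tnf held the letters of the TATA box, starting at -6, -46, -27 and -29, and no NF-kB match. Lif had an AP-1 match, and Csf2 and Il6st had none of the motifs searched. No match says only that the letters searched are not in this window.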

How the data were processed

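The data were RNA sequencing of 12 organoid samples in 4 groups of 3, assigned by the treatment label. The authors deposited TPM per gene. The study's methods name fastp, STAR, GRCm38 and RSEM, whereas the submitters' processing notes name STAR 2.7.9a, Partek and GRCm39, and which of them made the table is not given in the sources used here. The deposited TPM values behaved as fragments over the whole gene span. The table's coordinates were not combined with the GRCm38.p6 promoters.

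Fragments were recovered from the steps between values. Within a tolerance of 0.02 fragment, 52.6–59% of values above 0 were whole, and 75.5–76.9% of protein-coding values under 1000 fragments. Fractional values were taken as divided fragments. TPM on exonic length used GENCODE lengths matched by gene ID (23913 genes). The main test was limma 3.58.1 (R 4.3.3) on log2(TPM + 1) over all 12 samples and 24674 genes, with UK5099, butyrate and their interaction, empirical Bayes and Benjamini-Hochberg adjustment over all genes. Calls needed an adjusted p under 0.01 and an absolute coefficient over 1, after the study's methods. Voom on the recovered fragments, with no filter, was an alternative, since TPM are no counts. All replicate pairs differed by more than sampling noise. By chi-square per degree of freedom, the first UK5099 sample stood at 5.8 and 6.02 from the others of its group. The first combination sample stood at 6.11 and 5.84, and all other pairs were at 1.89–2.53. The fit and the step finder were tested on simulated whole fragments, which does not cover divided fragments.

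Genes and lists were chosen with earlier results of these data known, so no p-value was adjusted over a list and no list was tested. Members called against vehicle that reached 1 TPM are given by sample, other members at 1 TPM by means, and lower members where a group had 100 fragments. Up to 4 genes of each list with the largest coefficients are named. The alternatives were other pseudocounts, scalings, filters, priors and limits, exonic length, voom, a replicate block, fits of the groups compared and each sample left out. Figures were drawn with matplotlib 3.10.9, and tables were handled in Python 3.11.15 with pandas 2.3.3 and numpy 2.4.6.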

Additional observations from a re-analysis of the deposited data

Results flagged for a closer look

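In 4 genes the effect of one drug differed with the other drug present, by the interaction term of the limma fit of log2(TPM + 1). The term was 1.08 for Csf1, 1.53 for Csf2, 2.05 for Cxcl13 and 1.35 for Il23a (adjusted p = 3.18e-06, 0.000443, 1.21e-06 and 0.00202). Voom gave interactions of 1.08, 1.24, 2.30 and 1.78 in the same order, and that of Cxcl13 did not pass. The interaction of Cxcl13 rests on 1 fragment over the 3 combination samples, and at least 2.04 of it is forced by the lower end of the scale.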

How the results depend on the processing

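Of 79 coefficients past both limits in the 7 comparisons, 60 kept their call under each alternative that gave a value, 19 lost it under at least 1, and 0 changed direction. Of 174 recounts of called members, 143 stayed within 1.5 times. Many recounts left out 1 sample, and where its group was not compared they had little room to move. The voom counts moved past 1.5 times in all 7 comparisons. In the order UK5099, butyrate and combination against vehicle, interaction, butyrate against UK5099, combination against UK5099 and combination against butyrate, the main counts were 14, 16, 21, 4, 10, 8 and 6. Voom gave 25, 26, 33, 7, 17, 19 and 11. Without a limit on the coefficient, an adjusted p under 0.05 gave 36, 38, 43, 27, 30, 33 and 28, and one under 0.01 gave 33, 37, 38, 20, 27, 26 and 22. A pseudocount of 0.01 TPM gave 22, 26, 34, 18, 17 and 11, leaving out the interaction, and one of 0.1 TPM gave 32 for the combination and 8 for the interaction. The interaction count was 7 with protein-coding genes rescaled and 8 on exonic length. Leaving out 1 sample gave 12–14, 16–17, 21–22, 4–5, 9–11, 8–8 and 6–6. Calls lost without 1 sample were Ccl2 with UK5099 (-0.96 without the first UK5099 sample), Il23a with UK5099 (-0.98 without the first vehicle and -0.92 without the first UK5099 sample), and Il24 in butyrate against UK5099 (-0.96 without the second UK5099 or first butyrate sample and -0.97 without the second butyrate sample). Cxcl13 lost its interaction at a pseudocount of 0.01 TPM (2.23) and in voom (2.30), by significance and not by size.

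Same-numbered samples of different groups did not deviate together, with 18 pair correlations of -0.107 to 0.029 and 2 of 12 samples closest to their own number. A fit with the replicate number as a block left the counts at 14, 16, 21, 4, 10, 8 and 6. Depth limits the genes under 1 TPM: of the 64, 33 had no group mean at 1 TPM.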
